A study of Mus musculus with 2 samples.

Results

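CD8 T cells of the mouse pancreas were chosen by their transcripts from 2 single-cell RNA libraries, which hold 22352 cell barcodes in all. A barcode was taken as a CD8 T cell where it had at least 1000 unique molecular identifiers (UMIs, counted RNA molecules), at most 25% of them from mitochondrial genes, at least 3 UMIs summed over Cd3d, Cd3e, Cd3g, Trac and Trbc2, and at least 1 UMI of Cd8a or Cd8b1. It also had no UMI of Cd4 or Foxp3, at most 1 UMI of Cd79a and Ms4a1 together, and less than 1% of its UMIs from Lyz2. This gave 485 cells, 266 in the CP+EVs library and 219 in the CP library, out of 6849 CP+EVs and 8426 CP barcodes that met the limits on UMIs and mitochondrial share. The CP+EVs library came from a pancreas treated with Cae and EVs, and the CP library from a pancreas treated with Cae alone, so that both carry Cae and neither is an untreated pancreas. The labels do not spell out Cae, and the series title names extracellular vesicles induced by exercise, chronic pancreatitis and STING. The condition label of both samples reads acute pancreatitis, and the strain, sex, age, doses, times and number of animals were not given in the sources used here. With 1 library for each treatment there was no test between them: every difference below compares 2 libraries, and every 95% interval covers counting error only.

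CD8 T cells recognise peptides held on MHC class I molecules, with the CD8 alpha and beta chains as the co-receptor of the T cell receptor. Naive cells circulate through lymphoid organs under Ccr7 and S1pr1, whereas activated cells make granzymes, perforin and chemokines, and part of them stay in tissue and carry integrins such as the alpha 1 chain Itga1. Activated CD8 T cells also gain lectin-like receptors first known from natural killer (NK) cells, among them NKG2D (Klrk1), NKG2A (Klrc1), its partner CD94 (Klrd1) and KLRG1 (Klrg1).

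The defining genes of the cells were present in both libraries. Cd8b1 had 892 CPM in CP+EVs against 773 CPM in CP, Cd8a 833 CPM in CP+EVs against 742 CPM in CP, and Trac 1324 CPM in CP+EVs against 1176 CPM in CP, where CPM is the UMIs summed over the cells and scaled to a total of 1000000. These genes chose the cells, so that their levels are a description only. UMIs of both Cd8a and Cd8b1 were found in 203 CP+EVs and 168 CP cells, of Cd8a alone in 30 CP+EVs and 26 CP cells, and of Cd8b1 alone in 33 CP+EVs and 25 CP cells. At the edge of the rule, 7 CP+EVs and 11 CP cells had a CD3 sum of exactly 3 UMIs, while 25 CP+EVs and 10 CP barcodes that met all other limits had a sum of 2. A single UMI of Cd8a or Cd8b1 carried 33 CP+EVs and 29 CP cells, while 230 CP+EVs and 204 CP T cells had no UMI of Cd8a, Cd8b1, Cd4 or Foxp3. T cell genes that the rule did not use were also high in the cells. Among them the kinase gene Lck stood at 922% and the transcription factor gene Bcl11b at 1266% of the CPM over all kept barcodes of the CP+EVs library, and at 1474% and 1320.2% of that of the CP library.

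The libraries differed in depth and in the RNA of other cells, and both touch the results. The CP+EVs library held 8845 barcodes with a median of 2884 UMIs, and the CP library 13507 barcodes with a median of 1417. Of their barcode sequences 118 occurred in both, and none of those was a CD8 T cell. The CD8 T cells had a median of 3738 UMIs and 1706 genes in CP+EVs, against 3201 UMIs and 1626 genes in CP. The deepest single barcode supplied 3.2% of their summed UMIs in CP+EVs and 8.20% in CP. The 11 acinar genes listed summed to 54908 UMIs in CP+EVs and 100 UMIs in CP, which is 48.0% of the level of the whole CP+EVs library and 24.7% of that of the CP library, with none of them at 0 in CP+EVs and Cela2a and Amy2a5 at 0 in CP. The 6 fibroblast genes gave 2255 UMIs in CP+EVs and 13601 in CP, of which 5041 lay in 1 CP barcode, and none was at 0. The 6 neutrophil genes gave 32 UMIs in CP+EVs, with Cxcr2 at 0, and 1854 in CP. The 8 NK genes gave 425 UMIs in CP+EVs and 726 in CP, where Ncr1 and Klra9 were at 0, and the 8 gamma delta T cell genes gave 224 UMIs in CP+EVs, with Trdv4 and Il17a at 0, and 399 in CP, of which 270 lay in 1 barcode. Barcodes of over 20000 UMIs, or with a raised share of another cell type's markers, are called mixed or very deep below. They made up 31 CP+EVs and 28 CP cells. Values without them are given for part of the results only, with list medians over the genes measured in all CD8 T cells. Xist had no UMI in the cells of either library, while the Y-linked Ddx3y had 199 UMIs in CP+EVs and 235 in CP.

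Against conventional CD4 T cells of the same library, CD8 T cells were marked by granzymes, chemokines and lectin-like receptors. Of 6492 genes measured and not used to choose the cells, 57 (0.878%) were at least 2-fold higher in CD8 than in CD4 T cells in both libraries, and 24 (0.370%) at least 2-fold lower. Granzyme A (Gzma), a protease of cytotoxic granules, had 644 CPM in CD8 against 7.70 CPM in CD4 T cells of CP+EVs, and 2043 against 13.0 CPM in CP. Granzyme B (Gzmb), which cleaves caspases in the target cell, was higher by log2 ratios of 4.54 in CP+EVs and 3.72 in CP, and granzyme K (Gzmk) by 3.52 in CP+EVs and 3.25 in CP. Ccl5, a chemokine kept in effector cells, had 4277 CPM in CD8 against 487 CPM in CD4 T cells of CP+EVs, and 5421 against 867 CPM in CP. All of these stood higher in CD8 T cells in both libraries. The inhibitory receptor gene Klrc1 was higher by 4.0 in CP+EVs and 3.25 in CP, and Klrg1 by 2.55 in CP+EVs and 3.78 in CP. Klre1, a mouse receptor gene of NK cells, had 1 UMI in CD4 T cells of CP+EVs and was higher in CD8 T cells by 6.03 (4.11 to 11.92), and by 2.49 in CP.

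Some genes stood lower in CD8 than in CD4 T cells. Genes were measured by their level in CD8 T cells only, which leaves out genes low there. The counts of higher and lower genes therefore cannot be set against each other. The transcription factor gene Maf had log2 ratios of -2.93 in CP+EVs and -1.65 in CP, and the costimulatory receptor gene Icos -1.43 in CP+EVs and -1.27 in CP. The MAP kinase phosphatase gene Dusp10 had -1.71 in CP+EVs and -1.72 in CP, and Odc1, which codes for ornithine decarboxylase of polyamine synthesis, -1.63 in CP+EVs and -1.6 in CP.

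Against NK cells, Themis, Bcl11b, S1pr1, Cd28 and Gzmk were among the genes higher in CD8 T cells in both libraries. Of 6491 genes, 171 (2.63%) were at least 2-fold higher in CD8 T cells than in NK cells in both libraries and 113 (1.74%) at least 2-fold lower. Here too genes were measured in CD8 T cells only, so that the higher and lower counts cannot be compared. Themis, which acts in T cell receptor signalling of thymocytes, had 231 CPM in CP+EVs and 189 CPM in CP CD8 T cells. It had no UMI in the 69 NK cells of CP+EVs, where 3 UMIs would be 11.1 CPM, nor in the 49 of CP, where they would be 19.8 CPM. The T lineage factor gene Bcl11b was higher by log2 ratios of 4.63 in CP+EVs and 4.04 in CP, the exit receptor gene S1pr1 by 3.81 in CP+EVs and 2.73 in CP, and the costimulatory receptor gene Cd28 by 2.87 in CP+EVs and 2.71 in CP. Gzmk was higher as well, by 3.95 in CP+EVs and 3.19 in CP. The adaptor genes Tyrobp and Fcer1g, which carry the signal of NK receptors, were lower in CD8 T cells: Tyrobp by -3.93 in CP+EVs and -2.56 in CP, and Fcer1g by -3.68 in CP+EVs and -2.50 in CP. The receptor chain gene for interleukins 2 and 15, Il2rb, was lower by -1.88 in CP+EVs and -2.0 in CP, at 603 CPM in CD8 against 2222 CPM in NK cells of CP+EVs. Gzma, high against CD4 T cells, had 4057 CPM in NK cells of CP+EVs and 6674 CPM in those of CP.

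**Figure D1:**
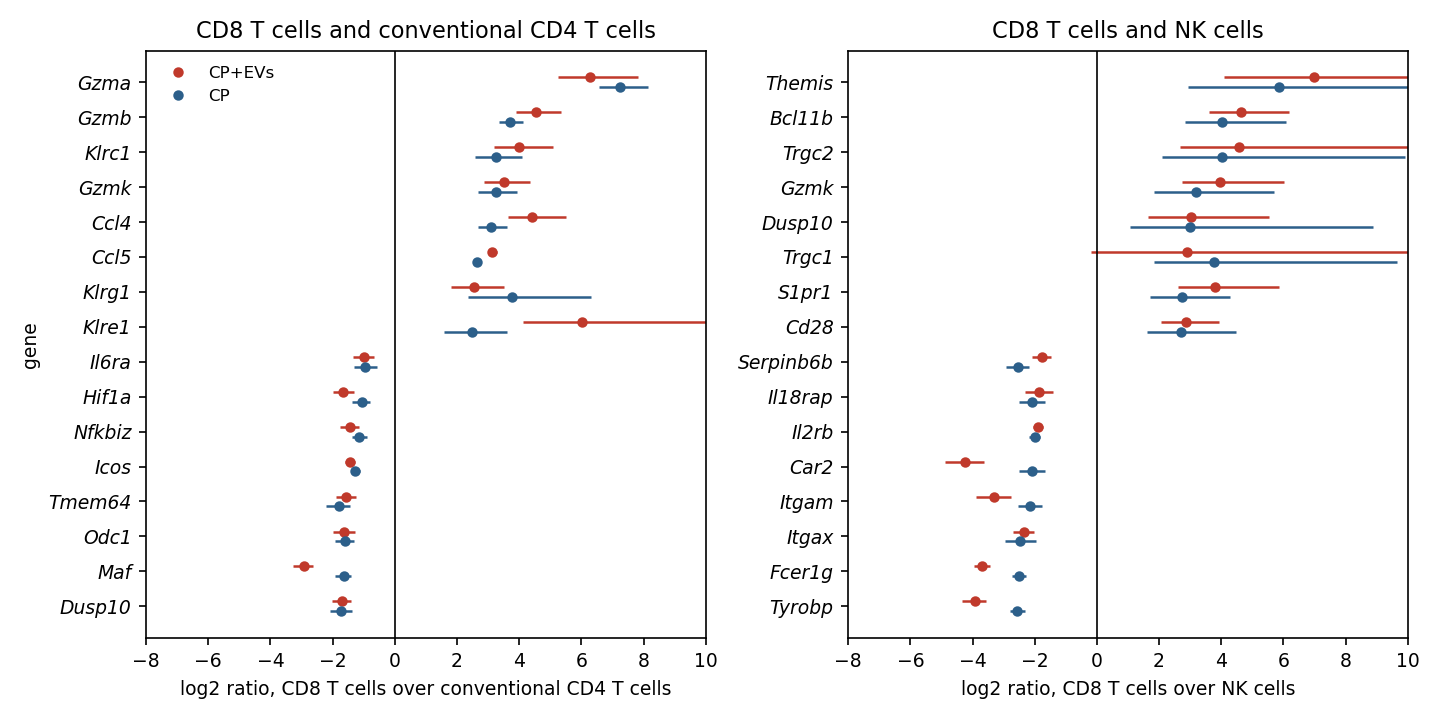
Horizontal axis, log2 ratio of summed CPM of CD8 T cells over conventional CD4 T cells (left) or NK cells (right). Each row is a gene, with the CP+EVs library in red above the CP library in blue, and lines are 95% counting intervals. Gzma stands furthest to the right in CP on the left panel, at 7.25, and the points of Themis and Trgc1 on the right panel depend on the 0.5 UMIs added, since NK cells had 0 or 1 UMI.

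Several of the lectin-like receptor genes lie side by side on chromosome 6, in the natural killer gene complex. On build GRCm38, Klre1 spans chr6:129577905-129585827 and Klrd1 chr6:129591782-129598775, both on the plus strand. Klrk1 spans chr6:129610323-129623864 and Klrc1 chr6:129666015-129678973, both on the minus strand. Klrg1 lies apart at chr6:122270596-122282882, and Cd8b1 and Cd8a lie on the same chromosome at chr6:71322788-71337494 and chr6:71373427-71379173. The 250 bases before the RefSeq start of 3 of the receptor genes and of Gzmb are shown because these genes mark the CD8 T cells against CD4 T cells in both libraries or stood among the highest in CP+EVs. Capitals mark TGTGGT or its complement ACCACA, the core letters that RUNX factors bind, among them RUNX3 of the CD8 lineage.
Klrk1 (chr6:129623865-129624114, minus strand): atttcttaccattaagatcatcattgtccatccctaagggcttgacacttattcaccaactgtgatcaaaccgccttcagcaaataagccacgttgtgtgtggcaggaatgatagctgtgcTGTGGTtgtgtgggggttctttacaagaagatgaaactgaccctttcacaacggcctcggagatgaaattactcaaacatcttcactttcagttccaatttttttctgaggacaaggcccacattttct
Klrc1 (chr6:129678974-129679223, minus strand): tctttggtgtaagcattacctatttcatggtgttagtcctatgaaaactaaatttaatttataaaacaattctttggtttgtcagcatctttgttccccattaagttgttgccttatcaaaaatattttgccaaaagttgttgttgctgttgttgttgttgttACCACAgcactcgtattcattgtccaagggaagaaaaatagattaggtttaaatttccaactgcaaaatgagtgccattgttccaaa
Klre1 (chr6:129577963-129578212, plus strand): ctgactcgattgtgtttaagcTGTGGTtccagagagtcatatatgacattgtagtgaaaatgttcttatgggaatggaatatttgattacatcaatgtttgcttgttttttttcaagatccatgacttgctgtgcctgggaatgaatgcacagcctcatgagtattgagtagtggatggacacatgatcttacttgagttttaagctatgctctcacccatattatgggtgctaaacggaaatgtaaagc
Gzmb (chr14:56262335-56262584, minus strand): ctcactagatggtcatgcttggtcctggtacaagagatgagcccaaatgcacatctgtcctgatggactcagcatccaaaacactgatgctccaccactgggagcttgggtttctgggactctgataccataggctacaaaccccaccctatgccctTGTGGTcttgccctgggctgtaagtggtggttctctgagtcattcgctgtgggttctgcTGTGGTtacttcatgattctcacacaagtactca
The sequences are from RefSeq on GRCm38.p6 and read along the gene. The marked letters lie 129 to 124 bases before the start of Klrk1, 87 to 82 before that of Klrc1, 229 to 224 before that of Klre1, and at 93 to 88 and 34 to 29 before that of Gzmb. A second listed start of Klre1 has none, and of the other granzyme genes examined Gzma has them and Gzmk does not. Both strands were searched for TGTGGT (RUNX), GGTGT (T-box) and GGAAG (ETS), and no matches overlap in the windows shown. Over all 32851 windows of the table, 14.0% hold TGTGGT, 36.2% GGTGT and 64.1% GGAAG. A match is a description of the letters only.

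Within the CD8 T cells, effector transcripts were found less often in cells with a naive cell transcript than in the others, in both libraries, for Ccl5 in CP with intervals that overlap. Cells with a UMI of Ccr7 or of the naive T cell factor gene Lef1 numbered 121 of 266 in CP+EVs and 90 of 219 in CP. Gzmb was found in 10.7% of those cells and 45.5% of the others in CP+EVs, and in 16.7% of those cells and 36.4% of the others in CP. Ccl5 was found in 59.5% of the cells with Ccr7 or Lef1 and 93.8% of the others in CP+EVs, and in 77.8% of those cells (67.8% to 85.9%) and 89.1% of the others (82.5% to 93.9%) in CP. The cells with Ccr7 or Lef1 were the deeper ones, with medians of 4089 against 3352 UMIs in CP+EVs and 3560.5 against 3134 in CP. Gzmk was found in 105 CP+EVs and 88 CP cells. Eomes, a T-box factor gene of effector and memory cells, was found in 54.3% of the Gzmk cells and 19.3% of the others in CP+EVs, and in 39.8% and 19.8% in CP. Gzma and Gzmb shared cells: Gzmb was found in 70.8% of the 48 CP+EVs cells with Gzma and 20.6% of the others, and in 82.5% of the 40 CP cells with Gzma and 16.2% of the others. Cells with Gzma were deeper than the others, with medians of 4014 against 3696 UMIs in CP+EVs and 4218 against 3053 in CP. Those with Gzmk had 3772 against 3696 in CP+EVs and 3723 against 3027 in CP. The shares were not thinned, and the part of depth in them was not tested. They are descriptions within a library, since all cells of a library share 1 source.

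Itga1, the collagen-binding integrin chain of tissue T cells, was set against homing and exit genes cell by cell. S1pr1, whose product leads T cells back to lymph and blood, was found in 19.5% of the 87 CP+EVs cells with Itga1 and 44.7% of those without. In CP it was found in 34.1% of the 41 cells with Itga1 (20.1% to 50.6%) and 50.6% of those without (43.0% to 58.1%), with intervals that overlap. The tissue-homing receptor gene Cxcr6 was found in 56.3% against 25.7% in CP+EVs and in 43.9% against 27.5% in CP, where the intervals of 28.5% to 60.3% and 21.1% to 34.7% overlap. Klrg1 went with Gzma, which was found in 73.7% of the 38 CP+EVs cells with Klrg1 and 8.77% of the others, and in 50% of the 20 CP cells with Klrg1 and 15.1% of the others. Median UMIs with and without Itga1 were 3772 and 3710 in CP+EVs, and 4121 and 3137.5 in CP. With and without Klrg1 they were 4014 and 3696 in CP+EVs, and 4357.5 and 3141 in CP. The part of depth in these unthinned shares was not tested. S1pr1 was found in 4 of the 38 CP+EVs cells with Klrg1 (10.5%) and 40.8% of the others. In CP it was found in 11 of the 20 such cells (55%, 31.5% to 76.9%) and 46.7% of the others (39.6% to 53.9%), with intervals that overlap.

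Cycling cells, taken as those with at least 2 UMIs of Mki67 and Top2a together, made up 32 of 266 CP+EVs cells (12%, exact binomial interval 8.38% to 16.6%) and 24 of 219 CP cells (11%, 7.15% to 15.9%). They were deeper than the other cells, with medians of 5883 against 3497 UMIs in CP+EVs and 6715 against 3027 in CP. After every cell was thinned to 1000 UMIs, at least 5 UMIs of the cell cycle list were left in 21 CP+EVs cells (7.89%) and 29 CP cells (13.2%). The counts ran in opposite orders, so that no order between the libraries is read from them. The median log2 ratio of CP+EVs over CP across the 27 measured cell cycle genes was -0.04, and -0.40 without the mixed or very deep barcodes.

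**Figure D2:**
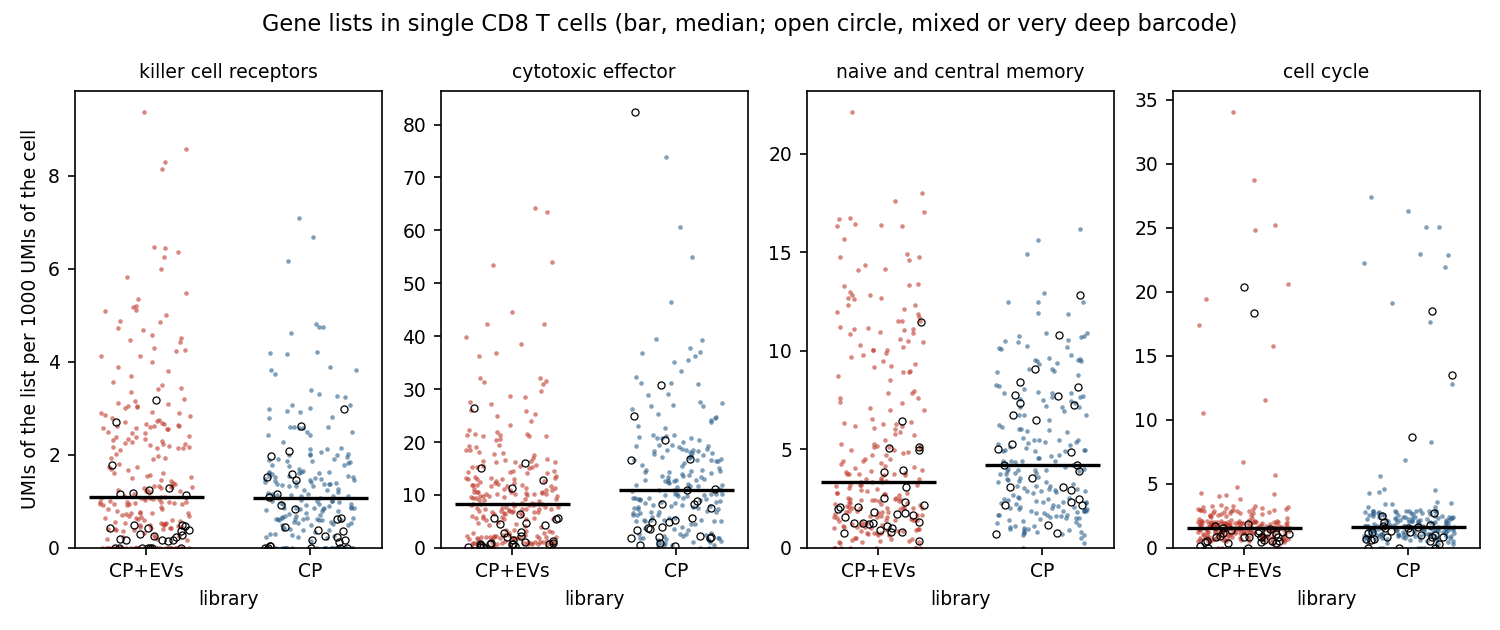
Vertical axis, UMIs of a gene list per 1000 UMIs of the cell. Each point is a CD8 T cell, with CP+EVs left of CP, bars at the medians and open circles for mixed or very deep barcodes; the median of the cytotoxic effector list is 8.33 in CP+EVs and 11 in CP.

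CD8 T cells took a larger share of the CP+EVs than of the CP library. They were 3.88% of the kept barcodes in CP+EVs (exact binomial interval 3.44% to 4.37%) and 2.60% in CP (2.27% to 2.96%). Among all T cells by the same CD3 limit they were 37.5% of 710 in CP+EVs (33.9% to 41.1%) and 31.4% of 698 in CP (27.9% to 35.0%), with intervals that overlap. The log2 ratio of the shares was 0.58 over kept barcodes and 0.26 over T cells. Conventional CD4 T cells were 25.5% of the T cells in CP+EVs and 32.8% in CP. The part of cell recovery in these shares was not tested.

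Killer cell receptors had the highest median log2 ratio of the 21 gene lists examined, though not under every alternative. Of 17 listed genes 10 were measured, which took at least 20 UMIs over both libraries and a mean of 20 CPM. At least 2-fold higher in CP+EVs were 2 of the 10, against 1.89% of all 6500 measured genes, and none was at least 2-fold lower, against 7.52%. At least 1.5-fold higher were 6, against 5.98% of all measured genes, and none was at least 1.5-fold lower, against 15.0%. The median was 0.64, against -0.07 over all measured genes. It was 0.46 without the mixed or very deep barcodes, 0.44 without cells holding a UMI of Ncr1 or of a gamma delta receptor gene, and 0.25 from the mean of per-cell CPM. Glucocorticoid and stress genes stood higher from the mean of per-cell CPM, at 0.29, residency genes without the Ncr1 and gamma delta cells, at 0.56, and the STING list with Cd79a, Ms4a1 and Lyz2 at 0, at 0.86 against 0.43. Per cell, the list had a median of 1.09 UMIs per 1000 in CP+EVs and 1.08 in CP, and an upper quartile of 2.57 in CP+EVs and 1.86 in CP. The 8 NK marker genes had a sum of 355 CPM in CP+EVs and 694 CPM in CP. Tyrobp gave 75 of their 425 UMIs in CP+EVs and 318 of 726 in CP, and Fcer1g 164 in CP+EVs and 346 in CP. Klre1 ran the other way, with 150 UMIs in CP+EVs and 58 in CP, as did Klrb1c, Klra9 and Ncr1. In CD4 T cells Tyrobp had 38.5 CPM in CP+EVs and 326 CPM in CP. Against the level of the whole library the order of the 8 genes' sum was the opposite, at 60.5% in CP+EVs and 28.5% in CP. Leaving out the cells with a UMI of Ncr1 or of a gamma delta receptor gene left 220 CP+EVs and 194 CP cells. Ncr1 had few UMIs in CP+EVs and none in CP, so that this step cannot speak to NK cells. The part of NK cells in these values was not tested.

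Klrg1, an inhibitory receptor gene of effector cells, had 109 CPM in CP+EVs against 41.1 CPM in CP, from 130 UMIs in 38 CP+EVs cells and 43 UMIs in 20 CP cells. Its log2 ratio was 1.39 (0.89 to 1.93), and 0.52 without cells holding a UMI of Ncr1 or of a gamma delta receptor gene. Klre1 had 125 CPM in CP+EVs against 55.4 CPM in CP, with a log2 ratio of 1.17 (0.73 to 1.64). Both intervals lay above 0. Klrk1, which codes for the activating receptor NKG2D, had 265 CPM in CP+EVs against 145 CPM in CP, with a log2 ratio of 0.86 (0.58 to 1.15). Under a rule with no UMI of Cd79a, Ms4a1 or Lyz2, which left 81 CP+EVs and 26 CP cells, Klrk1 stood at -0.22 and Klre1 at 2.02. Klrc1 had 236 CPM in CP+EVs against 152 CPM in CP (0.63, 0.35 to 0.93), and Slamf7, an activating receptor gene of the SLAM family, 134 CPM in CP+EVs and 80.3 CPM in CP (0.74, 0.35 to 1.14). The partner chain gene Klrd1 differed less, at 287 CPM in CP+EVs against 250.4 CPM in CP (0.20, -0.04 to 0.43). Cd226, an activating receptor gene, had 296 CPM in CP+EVs against 236 CPM in CP (0.33, 0.09 to 0.57), and the activating NKG2C gene Klrc2 30.0 CPM in CP+EVs and 19.1 CPM in CP (0.64, -0.17 to 1.52). Crtam stood at 0.14 (-0.42 to 0.70) and Cd160 at -0.07 (-0.69 to 0.55), both with intervals that include 0. The 7 listed genes too low to be measured were Klrb1c with 15 UMIs in CP+EVs and 2 in CP, Klra9 with 14 in CP+EVs and 0 in CP, Klra7 with 13 in CP+EVs and 15 in CP, Ncr1 with 2 in CP+EVs and 0 in CP, Klra1 with 4 in CP+EVs and 6 in CP, Cd244a with 8 in CP+EVs and 12 in CP, and Klri2 with 0 in CP+EVs and 2 in CP. In CD4 T cells Klrg1 had 14 UMIs in CP+EVs and 3 in CP, and Klre1 had 1 in CP+EVs and 11 in CP.

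The shares of cells with a receptor transcript were taken after thinning every cell to 1000 UMIs at random, and they move with the draw. Klre1 was found in 11.3% of thinned CP+EVs cells (7.74% to 15.7%) and 2.74% of CP cells (1.01% to 5.87%), with intervals that do not overlap. In a second draw it was found in 9.02% in CP+EVs (5.87% to 13.1%) and 3.65% in CP (1.59% to 7.07%), and there the intervals overlap. B cells of the same libraries had it in 0.310% in CP+EVs and 0% in CP, and the unthinned shares in CD8 T cells, 17.7% in CP+EVs (13.3% to 22.8%) and 10.05% in CP (6.40% to 14.8%), have intervals that overlap. Klrg1 was found in 7.14% of thinned CP+EVs cells (4.35% to 10.9%) and 3.2% of CP cells (1.29% to 6.47%), with intervals that overlap. Klrk1 was found in 24.4% of thinned CP+EVs cells (19.4% to 30.1%) and 16.0% of CP cells (11.4% to 21.5%), also with intervals that overlap, and Klrc1 in 20.7% in CP+EVs and 16.4% in CP. In the second draw Klrk1 was found in 20.3% in CP+EVs and 11.9% in CP, and Klrg1 in 7.52% in CP+EVs and 4.11% in CP.

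The cytotoxic effector list had a median log2 ratio near 0 over its genes, while its median and lower quartile per cell were lower in CP+EVs. Per cell, it had a median of 8.33 UMIs per 1000 in CP+EVs and 11 in CP, and a lower quartile of 2.37 in CP+EVs and 5.43 in CP. These are sums over the list, in which abundant genes weigh most. Its member Ccl5 had a mean per-cell CPM of 5205 in CP+EVs and 7581 in CP, and its part in the sums was not tested. Of 22 listed genes 19 were measured, none at least 2-fold higher in CP+EVs, against 1.89% of all measured genes. At least 2-fold lower was 1, Gzma, against 7.52%. The median was -0.05, and over the alternatives it ran from -0.11 without the mixed or very deep barcodes to 0.30 with at least 2 UMIs of Cd8a and Cd8b1. With median-of-ratios factors it was 0.02, and 0.10 with acinar and other abundant genes left out of the totals. Gzma had 644 CPM in CP+EVs against 2043 CPM in CP, a log2 ratio of -1.66, with 1542 of its 2138 UMIs in CP in 1 barcode, and -0.29 without the mixed or very deep barcodes. By share of cells it was found in 12% of thinned CP+EVs cells (8.38% to 16.6%) and 11.4% of CP cells (7.53% to 16.4%). Gzmb was found in 21.8% in CP+EVs and 20.1% in CP, and Gzmk in 19.5% in CP+EVs and 18.7% in CP. Perforin (Prf1), which opens the membrane of the target cell, had 67.6 CPM in CP+EVs against 37.3 CPM in CP (0.85, 0.29 to 1.45), and Fas ligand (Fasl) 166 CPM in CP+EVs and 109.9 CPM in CP (0.59, 0.26 to 0.94). Cystatin F (Cst7), which inhibits the proteases that activate granzymes, had 130.2 CPM in CP+EVs against 72.6 CPM in CP (0.84, 0.44 to 1.26). These 3 intervals lay above 0. Ccl5 was lower in CP+EVs, at 4277 CPM in CP+EVs against 5421 CPM in CP (-0.34, -0.40 to -0.29), and was found in 69.9% of thinned CP+EVs cells (64.0% to 75.4%) and 79.9% of CP cells (74.0% to 85%), with intervals that overlap. The gene of interferon gamma (Ifng) had 96.0 CPM in CP+EVs against 127 CPM in CP (-0.40, -0.78 to -0.03), with 46 of its 133 UMIs in CP in 1 cell.

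As a list the residency genes had a median near 0. Of 15 residency genes 10 were measured, none past 2-fold. At least 1.5-fold higher were 2 of the 10, against 5.98% of all measured genes, and 1 was lower, against 15.0%, with a median of 0.04 that was 0.35 without the mixed or very deep barcodes. Over the alternatives the median ran from -0.23 with Cd79a, Ms4a1 and Lyz2 at 0 to 0.56 without the Ncr1 and gamma delta cells. Itga1 had 217 CPM in CP+EVs against 109 CPM in CP (0.99, 0.67 to 1.32), and was found in 16.2% of thinned CP+EVs cells (12% to 21.2%) and 8.68% of CP cells (5.30% to 13.2%), with intervals that overlap. Its log2 ratio was 1.31 without the mixed or very deep barcodes and 0.11 under the rule with no UMI of Cd79a, Ms4a1 or Lyz2. Cxcr6 had 149 CPM in CP+EVs against 96.5 CPM in CP (0.63, 0.27 to 1.0), and no order is read from its shares of cells, which were 13.5% in CP+EVs and 15.1% in CP in 1 thinning, 12.8% in CP+EVs and 11.4% in CP in the second draw and 35.7% in CP+EVs and 30.6% in CP unthinned. Cd69, whose product holds cells in tissue, had 315 CPM in CP+EVs against 211 CPM in CP (0.57, 0.33 to 0.82). Itgae, the integrin chain gene of T cells in epithelia, was low in both at 43.4 CPM in CP+EVs against 42.0 CPM in CP.

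The naive and central memory list had a median of 0.16 over 20 measured genes, with 2 at least 2-fold higher, against 1.89% of all measured genes, and 1 lower, against 7.52%. Ccr7, whose product guides cells into lymph nodes, had 108 CPM in CP+EVs against 49.7 CPM in CP (1.11, 0.64 to 1.61), and was found in 10.2% of thinned CP+EVs cells (6.80% to 14.4%) and 3.65% of CP cells (1.59% to 7.07%), with intervals that overlap, and in a second draw in 9.77% in CP+EVs and 5.02% in CP. Without the mixed or very deep barcodes the log2 ratio of Ccr7 was 0.81. B cells of the same libraries had Ccr7 in 21.2% in CP+EVs and 24.9% in CP, and the part of B cell RNA in the Ccr7 difference was not tested. Lef1 had 199 CPM in CP+EVs against 143 CPM in CP (0.47, 0.18 to 0.78), while the thinned shares of 15.8% in CP+EVs and 18.7% in CP ran the other way, as did 16.9% in CP+EVs and 21.0% in CP in the second draw. Tcf7, a factor gene of naive and memory cells, was found in 30.1% in CP+EVs and 29.7% in CP. S1pr1 was lower in CP+EVs, at 233 CPM in CP+EVs against 283 CPM in CP (-0.28, -0.52 to -0.04). Igfbp4 had the lowest log2 ratio of the list, -2.31, with 448 of its 1656 UMIs in CP in 1 barcode, and -0.64 without the mixed or very deep barcodes.

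Transcription factor, checkpoint and receptor signalling genes differed in both directions between the libraries. Eomes had 199 CPM in CP+EVs against 112 CPM in CP (0.83, 0.50 to 1.16), and in CD4 T cells 40 UMIs in CP+EVs and 9 in CP. Among thinned CD8 T cells Eomes was found in 15.0% in CP+EVs and 10.5% in CP, with intervals that overlap. In a second draw the shares were 13.9% in CP+EVs and 14.2% in CP, so that no order is read from them. Tbx21, the gene of T-bet, had 57.6 CPM in CP+EVs against 65.9 CPM in CP (-0.20, -0.70 to 0.31). Of 15 measured effector factor genes none was 2-fold higher, against 1.89% of all measured genes, and 1 was 2-fold lower, against 7.52%. The lower gene was Id3, with 45 of its 87 UMIs in CP in 1 barcode. Of 12 measured checkpoint genes 2 were at least 2-fold higher, against 1.89% of all measured genes, and none lower, against 7.52%, with a median of -0.03 that was 0.19 without the mixed or very deep barcodes. It was -0.50 over the genes with a mean of at least 100 CPM. Of the 12 checkpoint intervals 4 lay above 0 and 4 below it, which was not counted over all measured genes. The inhibitory receptor gene Tigit had 49.2 CPM in CP+EVs against 22 CPM in CP (1.14, 0.45 to 1.93), and was found in 6.02% of thinned CP+EVs cells (3.48% to 9.58%) and 1.37% of CP cells (0.283% to 3.95%), with intervals that overlap, and in a second draw in 3.76% in CP+EVs and 2.74% in CP. Havcr2, which codes for TIM-3, had 41.7 CPM in CP+EVs against 19.1 CPM in CP, a log2 ratio of 1.11 that was 0.37 without the mixed or very deep barcodes. Pdcd1, which codes for PD-1, had 49.2 CPM in CP+EVs against 39.2 CPM in CP (0.32, -0.27 to 0.94). The kinase gene Zap70 was the 1 of 26 receptor signalling genes at least 2-fold higher, against 1.89% of all measured genes, and none was lower, against 7.52%. It had 57.6 CPM in CP+EVs against 18.2 CPM in CP, from 69 UMIs in 50 CP+EVs cells and 19 UMIs in 14 CP cells, with a log2 ratio of 1.64 (0.92 to 2.48). Lck, which acts upstream of it, had 753 CPM in CP+EVs against 669.9 CPM in CP (0.17, 0.02 to 0.31), and the adaptor gene Lat 287 CPM in CP+EVs and 236 CPM in CP (0.28, 0.04 to 0.52).

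**Figure D3:**
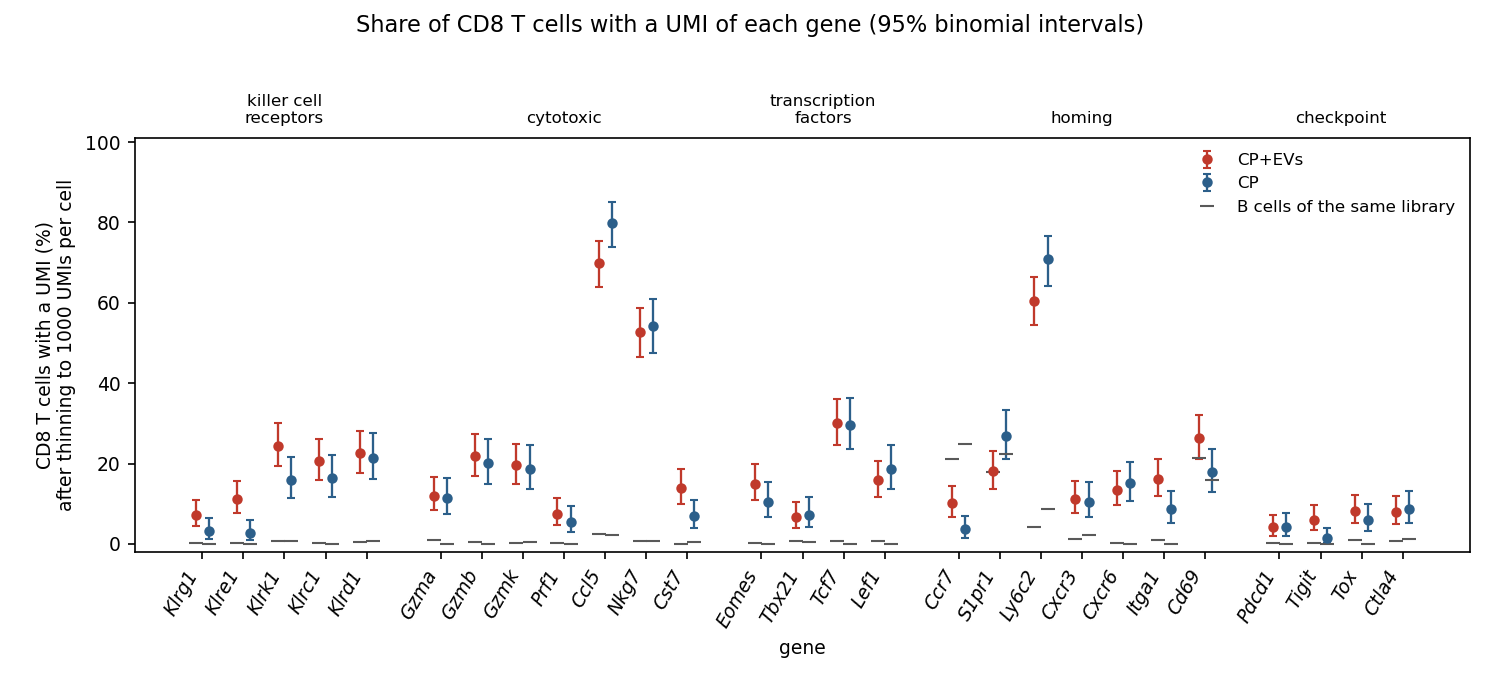
Vertical axis, percent of CD8 T cells with a UMI of the gene after each cell was thinned to 1000 UMIs. CP+EVs in red is left of CP in blue, lines are 95% binomial intervals and grey dashes the B cells of the same library; the points are 1 random draw, in which Klre1 lies at 11.3% in CP+EVs and 2.74% in CP, against 9.02% in CP+EVs and 3.65% in CP in a second draw, and Gzma at 12% in CP+EVs and 11.4% in CP.

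Over all 6500 measured genes, 123 (1.89%) were higher in CP+EVs by 2-fold or more, and 489 (7.52%) were lower by as much. Of these, 74 of the higher and 423 of the lower genes stood below the level of all kept barcodes in the library where they were higher. Among the 4503 genes at or above that level, 49 (1.09%) were higher by 2-fold or more, and 66 (1.47%) lower. The 12 highest among the more abundant of these genes were Klrg1, Klre1, Ccr7, Trp53inp1, Rflnb, Itga1, Vps37b, Klrk1, Adgre5, Cst7, Eomes and Gpr174, with log2 ratios from 1.39 to 0.81. Vps37b, a gene of endosomal sorting, had 289 CPM in CP+EVs against 146 CPM in CP (0.98, 0.70 to 1.27). Trp53inp1, a target gene of p53, had 326 CPM in CP+EVs against 157 CPM in CP, and its log2 ratio of 1.05 was 0.66 without the mixed or very deep barcodes, 57 of its 390 UMIs in CP+EVs lying in 1 cell. Adgre5, which codes for the adhesion receptor CD97, had 142 CPM in CP+EVs against 78.4 CPM in CP (0.85, 0.47 to 1.25), and Gpr174, a receptor gene for lysophosphatidylserine, 182 CPM in CP+EVs and 103 CPM in CP (0.81, 0.48 to 1.16). With every barcode thinned to 1000 UMIs before the rule, Gpr174 stood at 0.10, Rflnb at 0.12 and Klre1 at 2.33. With Cd79a, Ms4a1 and Lyz2 at 0, Trp53inp1 stood at 0.15 and Rflnb at 1.97, against 1.04 for Rflnb in all CD8 T cells.

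The 12 lowest genes by the same rule each had their largest count in 1 of 3 barcodes of the CP library. Among them were Thbs4, Il6, Spon1, Trgc1, Sfrp1, Cilp, Car2, Cd7, Errfi1, Mgp and Gzma, with log2 ratios from -7.60 to -1.66. The first barcode had 85813 UMIs and the largest count of 7 of the genes, among them those of the matrix proteins thrombospondin 4 (Thbs4, 590 of 594 UMIs in CP) and matrix Gla protein (Mgp, 394 of 515). It had 6 UMIs of the CD3 genes and 2 of Cd8a and Cd8b1, beside 5041 UMIs of the fibroblast list. The second had 31632 UMIs, 2067 of them from the fibroblast list, and 81 of the 316 Il6 UMIs in CP. The third had 26581 UMIs, with 159 of the CD3 genes and 75 of Cd8a and Cd8b1, and the largest counts of Gzma, Cd7, Car2 and Trgc1. It held 130 UMIs of the gamma chain gene Trgc1, 70 of Trgc2 and 52 of the delta chain gene Trdc, against 10 of the alpha chain gene Trac, and 365 of the 792 Gzmb UMIs in CP. Without the mixed or very deep barcodes, which include all 3, Thbs4 stood at -0.37, Il6 at -0.29, Errfi1 at -0.15, Cd7 at -0.52, Cilp at 0.19, Sfrp1 at 0.24, Mgp at 0.32 and Trgc1 at 0.68. Car2 at -1.63 was still at least 2-fold lower, from 26 UMIs in CP+EVs and 63 in CP. Spon1 stood at -1.03, from 8 UMIs in CP+EVs and 13 in CP. Its 8.84 CPM in CP+EVs and 18.5 CPM in CP are both under the 20 CPM asked of a measured gene. Thbs4 then had 2 UMIs in CP+EVs and 2 in CP, and Trgc1 15 in CP+EVs and 7 in CP. Over the 6281 genes measured without the mixed or very deep barcodes, 157 were higher by 2-fold or more and 151 lower.

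**Figure D4:**
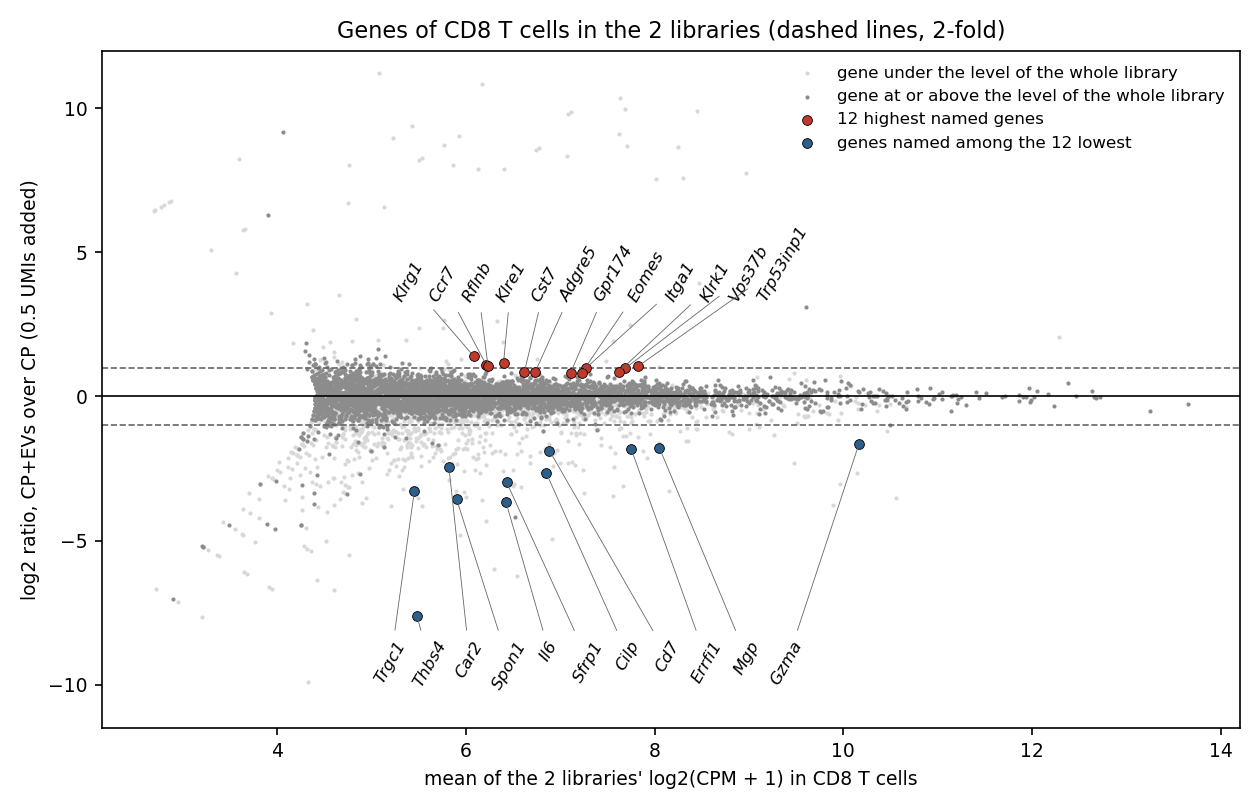
Horizontal axis, mean of the libraries' log2(CPM + 1) in CD8 T cells; vertical axis, log2 ratio of CP+EVs over CP. Each point is one of 6500 measured genes, dark where it is at or above its level in the whole library, with the 12 highest named genes in red, those named among the 12 lowest in blue and dashed lines at 2-fold; Thbs4 lies lowest of the named genes at -7.60.

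The interferon and STING genes differed little as lists in CD8 T cells. Of 57 genes of the type I interferon response 43 were measured, 1 at least 2-fold higher, against 1.89% of all measured genes, and 5 lower, against 7.52%, with a median of -0.05 that was 0.12 with acinar and other abundant genes left out of the totals. Ifit2 had 46.7 CPM in CP+EVs against 21.0 CPM in CP (1.13, 0.42 to 1.94), whereas its relative Ifit1 had 14.2 CPM in CP+EVs against 52.6 CPM in CP (-1.86, -2.77 to -1.08). All 5 lower genes, Ifit1, Ifi207, Ifitm3, Slfn5 and Ifi27l2a, stood below the level of the whole library in CP, at 23% to 82.7% of it. Sting1, which codes for the adaptor of cytosolic DNA sensing, had 49.2 CPM in CP+EVs against 61.2 CPM in CP (-0.31, -0.85 to 0.22). Cgas, whose product makes the ligand of STING, had 45.9 CPM in CP+EVs against 33.4 CPM in CP (0.45, -0.18 to 1.11), and the kinase gene Tbk1 66.8 CPM in CP+EVs and 52.6 CPM in CP (0.34, -0.17 to 0.87). These 3 intervals include 0. The STING list had a median of 0.14 over 10 measured genes, and 0.02 without the mixed or very deep barcodes. None of its genes was at least 2-fold higher, against 1.89% of all measured genes, and 1 was lower, against 7.52%. The lower gene, Ifi204, stood at -1.51 and at -0.04 without those barcodes. With Cd79a, Ms4a1 and Lyz2 at 0 the median was 0.86, from 81 CP+EVs and 26 CP cells.

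The MHC class I list had a median of 0.29 over 13 measured genes, and 0.20 without the mixed or very deep barcodes. None was at least 1.5-fold higher, against 5.98% of all measured genes, or lower, against 15.0%. Intervals lay above 0 for 6 of the 13, which was not counted over all measured genes. H2-K1 had 6276 CPM in CP+EVs against 4558 CPM in CP (0.46, 0.41 to 0.51), and H2-D1 4428 CPM in CP+EVs and 3623 CPM in CP (0.29, 0.23 to 0.35). Their shared chain gene B2m had 4153 CPM in CP+EVs against 4167 CPM in CP (-0.00, -0.06 to 0.05), with an interval that includes 0. The peptide transporter gene Tap1 had 249.6 CPM in CP+EVs against 179.7 CPM in CP (0.47, 0.21 to 0.75), and Nlrc5, the transactivator gene of MHC class I, 157 CPM in CP+EVs and 113 CPM in CP (0.47, 0.14 to 0.82). Of 23 measured genes induced by interferon gamma 1 was at least 1.5-fold higher, Iigp1 (0.96, 0.42 to 1.55), and 1 lower, Gbp3 (-0.63, -1.25 to -0.04). The shares over all measured genes were 5.98% and 15.0%.

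Of 34 measured immediate early and heat shock genes 2 were at least 2-fold higher in CP+EVs, Hspa1b and Hspa1a, which code for inducible HSP70, and 4 lower, Klf4, Egr2, Egr3 and Ier3. Over all measured genes 1.89% were higher by as much and 7.52% lower. Without the mixed or very deep barcodes Klf4 stood at -0.16, Egr2 at 0.08, Egr3 at 0.55 and Ier3 at -1.95. Hspa1b had 366 CPM in CP+EVs against 96.5 CPM in CP (1.92, 1.61 to 2.25), and Hspa1a 160.3 CPM in CP+EVs and 43.0 CPM in CP (1.89, 1.42 to 2.40). Both stood below the level of the whole library, at 65.3% and 42.2% of it in CP+EVs, and in CD4 T cells the log2 ratios of CP+EVs over CP were 1.84 and 2.01. Hspa1b was found in 16.9% of thinned CP+EVs cells (12.6% to 22%) and 5.94% of CP cells (3.2% to 9.94%), in a second draw in 23.3% in CP+EVs and 7.31% in CP, and in B cells in 10.4% in CP+EVs and 5.15% in CP. The immediate early gene Egr1 had 743 CPM in CP+EVs against 1102 CPM in CP, and its log2 ratio of -0.57 was 0.46 without the mixed or very deep barcodes. The 34 genes of the list had a median of -0.16, and 0.14 without those barcodes.

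Glucocorticoid and stress genes had a median of 0.32 over 12 measured genes, and of 0.50 in conventional CD4 T cells. In CD8 T cells none was at least 2-fold higher, against 1.89% of all measured genes, and 1 was lower, against 7.52%. Tsc22d3, a glucocorticoid-induced inhibitor gene of T cell activation, had 230.4 CPM in CP+EVs against 141 CPM in CP (0.70, 0.41 to 1.0), and the clock gene Per1 117 CPM in CP+EVs and 66.9 CPM in CP (0.80, 0.38 to 1.24). Pik3ip1, which codes for an inhibitor of PI3 kinase, had 68.4 CPM in CP+EVs against 34.4 CPM in CP (0.98, 0.41 to 1.6). The lower gene was Il1r2, a decoy receptor gene, with 1 UMI in CP+EVs and 128 in CP, where it stood at 40.4% of the level of the whole library. Glycolysis and hypoxia genes had a median of -0.42, and -0.11 without the mixed or very deep barcodes. Gapdh had 178 CPM in CP+EVs against 272 CPM in CP (-0.61, -0.88 to -0.35), and -0.96 without those barcodes.

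**Figure D5:**
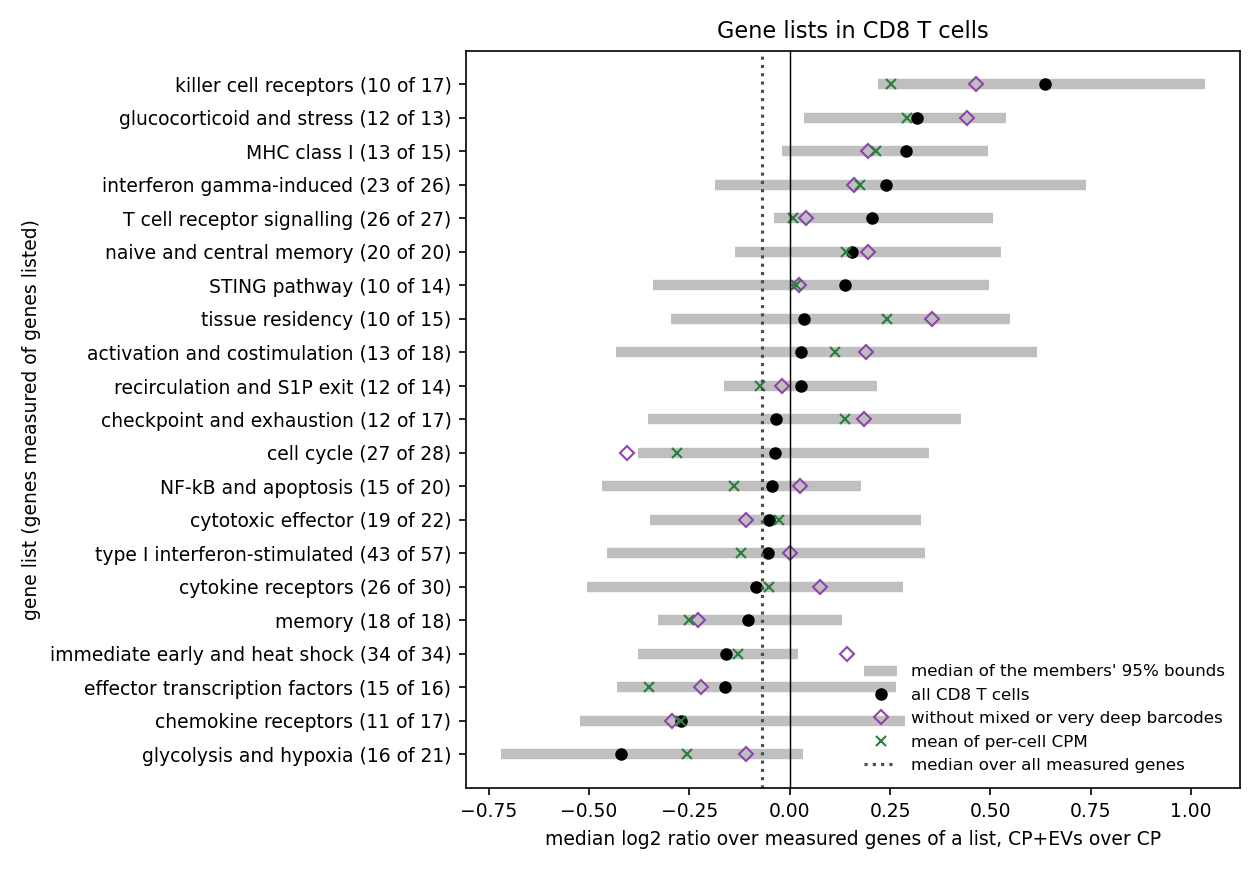
Horizontal axis, median log2 ratio of CP+EVs over CP over the measured genes of a list; each row is one of 21 lists. Black points are all CD8 T cells, bars the medians of the members' 95% bounds, diamonds the values without mixed or very deep barcodes, crosses those from the mean of per-cell CPM, and the dotted line the median of all measured genes; the killer cell receptors stand highest at 0.64 and the glycolysis and hypoxia genes lowest at -0.42.

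The other lists lay between these. Medians were -0.10 for memory genes, 0.03 for activation and costimulation, 0.20 for receptor signalling, -0.08 for cytokine receptors, -0.27 for chemokine receptors, 0.03 for recirculation, -0.16 for effector factors, 0.24 for genes induced by interferon gamma and -0.04 for NF-kB and apoptosis. Without the mixed or very deep barcodes they were, in the same order, -0.23, 0.19, 0.04, 0.08, -0.29, -0.02, -0.22, 0.16 and 0.03. T cell receptor beta variable genes were sparse. Trbv12-2 led them with 9 UMIs in CP+EVs and 3 in CP, and Trbv2 had 8 in CP+EVs and 2 in CP, which does not allow clones to be followed.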

How the data were processed

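Mouse pancreas was made into single cells, which BD Rhapsody captured, and reads were paired-end of 150 bp, per the labels' protocols. The submitters' processing notes name CASAVA 1.8, UMI-tools, Seurat and the mm10 build. The aligner, the annotation and the cell-calling rule were not given in the sources used here. Whole-number UMI counts were deposited by the authors per gene and barcode, 1 matrix per library.

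UMIs were summed over the CD8 T cells of each library, scaled to a total of 1000000 (CPM), and compared as log2 ratios with 0.5 UMIs added. A gene was measured with at least 20 UMIs over both libraries and a mean of at least 20 CPM, both in CD8 T cells. Intervals of ratios are exact conditional intervals, and those of shares exact Clopper-Pearson intervals, both at 95% and for counting error only. Conventional CD4 T cells met the same limits with Cd4 in place of Cd8a and Cd8b1. NK cells had at most 1 CD3 UMI and at least 2 UMIs of Ncr1, Klrb1c, Klre1 and Klra8, and B cells at least 3 UMIs of Cd79a and Ms4a1 and no CD3 UMI. Genes those rules use were left out of the comparisons. Shares of cells were taken after thinning each cell to 1000 UMIs, which left out no CD8 T cell, with 1 random draw and a second for comparison. No doublet caller was run. Instead, barcodes of over 20000 UMIs, or with at least 1% of their UMIs from a fibroblast, plasma cell, B cell, neutrophil, macrophage and monocyte or endothelial list, 0.2% from a type 2 innate lymphoid list or 10% from an acinar list, were left out in an alternative chosen after seeing the data.

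Named were the 12 highest and 12 lowest genes with at least 100 CPM in 1 library, at least 60 UMIs and a level at or above that of the whole library where higher, leaving out genes of the rule and acinar, Reg, mitochondrial, haemoglobin, immunoglobulin, ribosomal, Gm, Rik and T cell receptor variable genes. Up to 8 genes a side were named against CD4 T and NK cells, and members of each list by size of ratio or level. Some genes that these rules and lists include are not reported here. The members and lists were chosen with earlier results of these data known. Other limits of the rule, scalings, filters and added counts were tried. The ratio computation was checked on simulated data. Python 3.11.15, numpy 2.4.6, scipy 1.17.1, pandas 2.3.3 and matplotlib 3.10.9 were used.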

Additional observations from a re-analysis of the deposited data

Results flagged for a closer look

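The ratio of CP+EVs over CP ran in opposite directions in CD8 and CD4 T cells for 2 of the named genes, and neither difference was tested. For Trgc1, a gamma chain gene of the T cell receptor, the log2 ratio was -3.28 in CD8 and 1.45 in CD4 T cells, a difference of -4.73. For Mgp, the gene of matrix Gla protein, it was -1.79 in CD8 and 2.30 in CD4 T cells, a difference of -4.09. In CP CD8 T cells 1 barcode held 130 of the 139 Trgc1 UMIs and another held 394 of the 515 Mgp UMIs. Without the mixed or very deep barcodes the CD8 ratios were 0.68 for Trgc1, from 15 UMIs in CP+EVs and 7 in CP, and 0.32 for Mgp.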

How the results depend on the processing

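With no UMI of Cd79a, Ms4a1 or Lyz2 allowed, 81 CP+EVs and 26 CP cells were left. The log2 ratio of their share of kept barcodes was then 1.94 against 0.58. Of 3221 genes then measured, 238 were at least 2-fold higher and 166 lower, against 123 and 489 of 6500. The counts below also rest on different numbers of measured genes. Leaving acinar and other abundant genes out of the totals gave 185 of 6768 higher and moved the median of all genes to 0.08, against -0.07. A mean of at least 100 CPM gave 40 higher and 102 lower of 1990, and no filter beyond 1 UMI gave 2151 and 2844 of 15079. Thinning before the rule gave 108 of 3396 lower, and the mean of per-cell CPM 173 higher and 297 lower of 6500. Without mixed or very deep barcodes, an alternative chosen after seeing the data, 151 of 6281 were lower and the cell cycle median was -0.40.

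Among the 12 lowest genes, 11 of 168 values took the other sign. With no UMI of Cd79a, Ms4a1 or Lyz2, Spon1 stood at 0.74, Trgc1 at 1.22, Mgp at 0.89 and Gzma at 0.55. With thinning before the rule, Sfrp1 stood at 0.18 and Mgp at 0.26, and Mgp at 0.12 from the mean of per-cell CPM. Without mixed or very deep barcodes Trgc1 stood at 0.68, Sfrp1 at 0.24, Cilp at 0.19 and Mgp at 0.32. Among the 12 highest, 167 of 168 values stayed above 0, the exception being Klrk1 at -0.22. The cause of these shifts was not tested.

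A count of 3 UMIs is 2.50 CPM in CP+EVs and 2.87 CPM in CP CD8 T cells. No paired analysis was possible because each treatment has 1 library, and for the same reason no library was left out.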
